A study of Mus musculus with 16 samples.

Results

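The genes described here are the vascular endothelial growth factor (VEGF) ligands *Vegfa*, *Vegfb*, *Vegfc* and *Pgf*, the receptor tyrosine kinases *Flt1*, *Kdr* and *Flt4*, and the neuropilin co-receptors *Nrp1* and *Nrp2*. These 9 genes were taken by name, not by a rule on their values, from the 55492 genes of the table. Earlier results of these data were known when they were chosen. All 9 were found and passed the filter on low values, which left 20576 genes for testing. They were measured by RNA sequencing of left ventricles from 16 male C57BL/6 mice aged 8 to 12 weeks. The controls were PKM2fl/fl mice, in which the exon specific to the PKM2 isoform of pyruvate kinase is flanked by loxP sites. The PKM2-/- mice lack that exon in every tissue, since it was excised in the germline by CMV-Cre and the mice were then bred free of Cre. The loss is therefore global and lifelong, and is not limited to one cell type of the heart. There were 2 hearts per genotype without surgery (baseline), 3 per genotype taken 3 days after sham surgery, and 3 per genotype taken 3 days after myocardial infarction (MI) by permanent ligation of the left anterior descending artery. Sham hearts were the controls for MI hearts, and each library came from its own mouse.

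VEGF ligands are secreted dimers that bind receptor tyrosine kinases, chiefly on endothelial cells, and start growth, survival and permeability responses there. VEGF-A binds VEGFR1 (*Flt1*) and VEGFR2 (*Kdr*), VEGF-B and placental growth factor (*Pgf*) bind VEGFR1, and VEGF-C binds VEGFR3 (*Flt4*) and, after proteolytic processing, VEGFR2. VEGFR2 carries most of the angiogenic signal, VEGFR1 also exists as a soluble form that traps ligand, VEGFR3 is best known in lymphatic endothelium, and the neuropilins hold ligand beside the receptors and also bind class 3 semaphorins. In the heart, cardiomyocytes are a main source of VEGF-A and VEGF-B.

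Values are normalized read counts, the reads of a gene divided by the library's size factor, and the spread is the SD over the 2 or 3 hearts of a group. Library size ranged from 20623769 to 71855101 reads on genes, and loci resembling ribosomal RNA took from 15.9 to 48.5% of them. The members rested on 39 to 15533 reads per library, with the lowest value for *Pgf* in a PKM2-/- baseline heart. *Pkm*, the targeted gene, was read as a whole gene with both isoforms together, so its count does not show the deletion. Its range was 9108 to 9602 in PKM2fl/fl and 11981 to 12984 in PKM2-/- hearts at baseline, 7779 to 9444 and 11710 to 14242 after sham, and 9576 to 12076 and 10120 to 16113 after MI. Defining cardiomyocyte markers such as *Myh6*, *Atp2a2* and *Mb* were present in all libraries, as the tissue label states. In the PKM2fl/fl MI group, replicate 3 stood apart with a summed cardiomyocyte marker level of 219836, against 507050 and 517262 in the other MI hearts of that genotype.

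The members lie on 7 chromosomes of the mouse genome (RefSeq annotation of GRCm38.p6, the mm10 build used for the counts). *Vegfa* is at chr17:46016993-46032377 and *Vegfb* at chr19:6982472-6987651, both on the reverse strand. *Vegfc* is at chr8:54077532-54186454 on the forward strand and *Pgf* at chr12:85166637-85177785 on the reverse strand. Of the receptors, *Flt1* is at chr5:147561604-147726438 and *Kdr* at chr5:75932827-75979072, both on the reverse strand, and *Flt4* is at chr11:49609679-49652739 on the forward strand. *Nrp1* is at chr8:128358591-128505476 and *Nrp2* at chr1:62703317-62818692, both on the forward strand. The counts are per gene, so full-length and soluble *Flt1* and all splice forms of *Vegfa* were summed. *Vegfb* overlaps the protein-coding gene *Trpt1* on the other strand. Apart from *Pgf*, which overlaps no annotated gene, the other members overlap only non-coding or unclassified genes. The library kit does not mark strand, so reads on the shared bases cannot be assigned. *Trpt1* itself was low, with 180 ± 21.1 normalized counts in PKM2fl/fl sham and 80.9 ± 23.3 in PKM2fl/fl MI hearts (SD, n = 3).

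The promoters of *Vegfa* and *Vegfb*, the ligands that fell most after MI, and of *Nrp2*, the co-receptor that rose, are shown from RefSeq (GRCm38.p6), 5′ to 3′ on the gene's own strand. Each covers the part of the 250 bases before the annotated start that lies upstream of all annotated transcripts, namely chr17:46032384-46032627 for *Vegfa*, chr19:6987760-6987901 for *Vegfb* and chr1:62703067-62703284 for *Nrp2*. Capitals mark GC boxes, GGGCGG read on either strand, where neighboring matches may overlap.
Vegfa: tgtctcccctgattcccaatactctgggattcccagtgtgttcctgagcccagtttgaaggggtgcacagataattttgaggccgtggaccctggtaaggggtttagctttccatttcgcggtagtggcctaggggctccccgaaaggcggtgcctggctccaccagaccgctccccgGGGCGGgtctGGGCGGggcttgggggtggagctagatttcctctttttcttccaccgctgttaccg
Vegfb: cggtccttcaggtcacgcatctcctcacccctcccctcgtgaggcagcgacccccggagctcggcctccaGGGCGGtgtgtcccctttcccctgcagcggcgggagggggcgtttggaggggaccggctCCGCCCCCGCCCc
Nrp2: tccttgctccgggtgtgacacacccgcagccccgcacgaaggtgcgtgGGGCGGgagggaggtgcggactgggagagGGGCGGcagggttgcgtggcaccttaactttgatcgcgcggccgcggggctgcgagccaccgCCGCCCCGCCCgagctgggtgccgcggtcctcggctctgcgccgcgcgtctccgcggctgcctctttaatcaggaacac
At the start listed first for each gene, which need not be its outermost, all 9 members had GGGCGG within the 250 bases. That motif was held by 32.7% of the 32851 mouse promoters in the RefSeq table. For *Vegfc*, *Pgf* and *Flt4* no part of this window lay upstream of all annotated transcripts, so their matches lie within transcribed sequence. TATAAA was found in 1 of the 9 (*Flt1*) and in 12.4% of all promoters. ACGTG, the core of the hypoxia response element, was found in 0 of the 9 at the start listed first and in 16.6% of all promoters. The window of an internal *Vegfa* start held it. A match describes letters in a window and not a bound site, and elements outside the window were not searched.

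Compared per kilobase of exon (normalized counts per kilobase, exon union of GENCODE M39), the levels at baseline were led by the 2 ligands attributed to cardiomyocytes. In PKM2fl/fl hearts *Vegfb* had 1177 ± 80.4 and *Vegfa* 1087 ± 12.2 (SD, n = 2). *Kdr* (551 ± 17.0), *Nrp1* (544 ± 101) and *Flt1* (446 ± 58.4) followed, and neighbors in this order overlapped in range. Below them came *Vegfc* (285 ± 6.20), *Nrp2* (233 ± 26.9), *Flt4* (90.9 ± 6.91) and *Pgf* (42.5 ± 1.04), with no overlap between neighbors. PKM2-/- hearts at baseline had the same order, from 1183 ± 112 for *Vegfb* to 34.7 ± 14.6 for *Pgf*. After MI the levels lay closer together. In PKM2fl/fl MI hearts they ran from 550 ± 170 for *Vegfa* to 104 ± 26.7 for *Pgf*, and in PKM2-/- MI hearts from 496 ± 20.4 for *Vegfa* to 135 ± 14.5 for *Flt4* (SD, n = 3). *Pgf*, last in the other 5 groups, had 197 ± 33.7 per kilobase in PKM2-/- MI hearts and lay above *Flt4* there with no overlap.

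**Figure D1:**
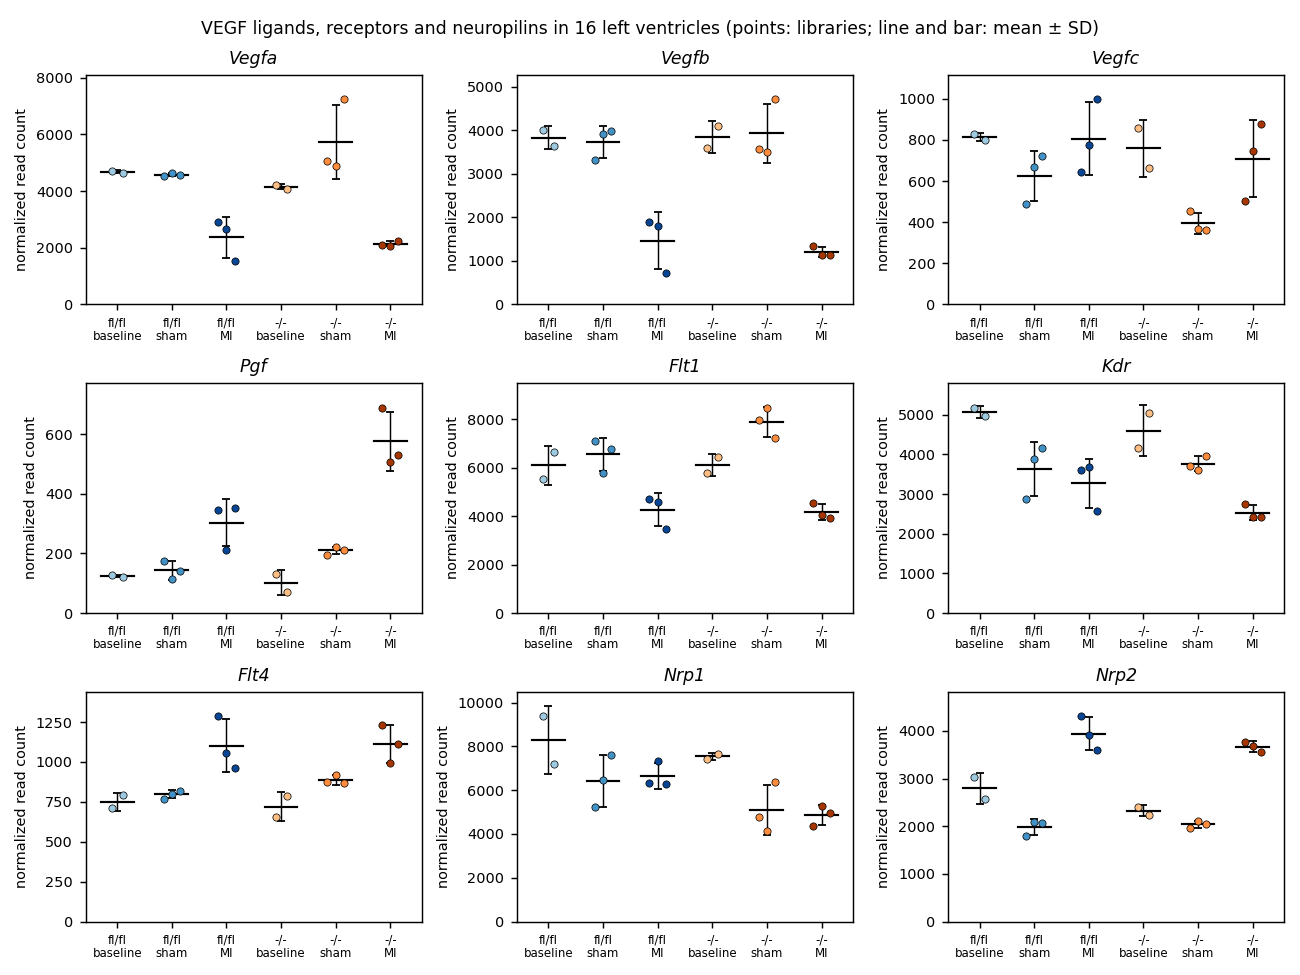
Normalized read counts (y axes, from 0) of the 9 genes in the 6 groups (x axes), with a point per library and the mean ± SD. In both genotypes the MI points of *Vegfa*, *Vegfb* and *Flt1* lie below all sham points, those of *Pgf*, *Flt4* and *Nrp2* lie above all sham points, and those of *Nrp1* overlap them.

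To find how the family differed 3 days after MI, infarcted hearts were compared with sham hearts of the same genotype. *Vegfa* and *Vegfb* fell, *Pgf* rose, *Flt1* fell, *Flt4* rose modestly and *Nrp2* rose close to 2-fold in both genotypes. *Vegfc* rose and *Kdr* fell in PKM2-/- hearts but did not pass the test in PKM2fl/fl hearts, a difference tested further down, and *Nrp1* passed in neither. In PKM2fl/fl hearts 6 of 9 members had an adjusted p under 0.05 (limma, Benjamini-Hochberg over all genes tested), against 50.1% of all genes. In PKM2-/- hearts it was 8 of 9, against 56.8% of all genes. Also at least 2-fold were *Vegfa*, *Vegfb* and *Pgf* in each genotype, a size reached by 23.5% of all genes in PKM2fl/fl and 28.8% in PKM2-/- hearts. The MI and sham hearts did not overlap for 6 of 9 members in PKM2fl/fl (59% of all genes) and 8 of 9 in PKM2-/- hearts (62.3%). With so many genes called, the sizes and directions of the members are given one by one. In whole left ventricle, fewer cells of a type and less RNA per cell cannot be told apart.

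*Vegfa*, the main angiogenic ligand, had 4536, 4645 and 4551 normalized counts in the PKM2fl/fl sham hearts and 2911, 2644 and 1534 after MI. The PKM2-/- sham hearts had 5056, 4882 and 7237, and the PKM2-/- MI hearts 2095, 2070 and 2233. All MI hearts lay below all sham hearts, the lowest being PKM2fl/fl MI replicate 3 and the highest PKM2-/- sham replicate 3. The level was 2.01-fold lower after MI in PKM2fl/fl (log2 fold change -1.01, standard error 0.19, adjusted p = 0.00042) and 2.64-fold lower in PKM2-/- hearts (-1.40, adjusted p = 1.65e-05). *Vegfb*, a VEGFR1 ligand, had 3317, 3905 and 3983 in PKM2fl/fl sham and 1884, 1794 and 720 in PKM2fl/fl MI hearts. It had 3579, 3501 and 4715 in PKM2-/- sham and 1333, 1135 and 1147 in PKM2-/- MI hearts. The groups did not overlap in either genotype, and PKM2fl/fl MI replicate 3 was again lowest. It was 2.77-fold lower in PKM2fl/fl (-1.47, standard error 0.26, adjusted p = 0.000266) and 3.24-fold lower in PKM2-/- hearts (-1.70, adjusted p = 5.46e-05), the largest fall among the members. *Trpt1*, on the opposite strand, had a log2 fold change of -1.18 in PKM2fl/fl and -1.23 in PKM2-/- hearts, and its part in the *Vegfb* count was not tested.

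*Pgf*, a VEGFR1 ligand with low levels in the resting heart, moved the other way. Its normalized counts were 174, 113 and 142 in PKM2fl/fl sham and 346, 213 and 351 in PKM2fl/fl MI hearts. They were 196, 222 and 213 in PKM2-/- sham and 690, 508 and 532 in PKM2-/- MI hearts. Within each genotype every MI heart was above every sham heart, whereas the PKM2fl/fl MI replicate 2 lay within the PKM2-/- sham range. The rise was 2.09-fold in PKM2fl/fl (log2 fold change 1.07, standard error 0.24, adjusted p = 0.00153) and 2.71-fold in PKM2-/- hearts (1.44, adjusted p = 9.67e-05). *Vegfc*, the lymphangiogenic ligand, had 489, 666 and 722 in PKM2fl/fl sham and 645, 776 and 998 in PKM2fl/fl MI hearts, which overlapped. The PKM2-/- sham hearts had 455, 367 and 364 and the PKM2-/- MI hearts 505, 744 and 877, with no overlap. The log2 fold change was 0.36 in PKM2fl/fl (95% interval -0.08 to 0.80, adjusted p = 0.160) and 0.81 in PKM2-/- hearts (0.37 to 1.25, adjusted p = 0.00351). At baseline *Vegfc* had 814 ± 17.7 in PKM2fl/fl and 760 ± 139 in PKM2-/- hearts (SD, n = 2). After MI the means were 806 ± 179 and 709 ± 189 (SD, n = 3). The rise is thus relative to sham hearts, whose means were lower than at baseline. MI was not tested against baseline. *Vegfd*, the other VEGFR3 ligand and not one of the 9, had 193 ± 22.1 in PKM2fl/fl sham and 247 ± 10.4 in PKM2fl/fl MI hearts (SD, n = 3). Its level was 163 ± 21.7 and 238 ± 38.6 in PKM2-/- hearts, and over both genotypes it rose 1.37-fold (0.45, adjusted p = 0.00706).

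Among the receptors, *Flt1* (VEGFR1) had 7099, 5797 and 6756 normalized counts in PKM2fl/fl sham and 4726, 4575 and 3476 in PKM2fl/fl MI hearts. It had 7976, 8473 and 7241 in PKM2-/- sham and 4539, 4035 and 3911 in PKM2-/- MI hearts. No MI heart reached the lowest sham heart. It was 1.55-fold lower in PKM2fl/fl (log2 fold change -0.63, standard error 0.13, adjusted p = 0.000916) and 1.90-fold lower in PKM2-/- hearts (-0.92, adjusted p = 2.45e-05). *Kdr* (VEGFR2) had 2865, 3897 and 4155 in PKM2fl/fl sham and 3597, 3672 and 2564 in PKM2fl/fl MI hearts, which overlapped. In PKM2-/- hearts it had 3718, 3616 and 3973 after sham and 2743, 2429 and 2429 after MI, with no overlap. The log2 fold change was -0.15 in PKM2fl/fl (-0.47 to 0.17, adjusted p = 0.426) and -0.57 in PKM2-/- hearts (-0.89 to -0.25, adjusted p = 0.00423). The PKM2-/- call for *Kdr* was lost with total count scaling (-0.06, adjusted p = 0.889), also when the ribosomal loci were left out of the total (-0.21, 0.292). *Flt4* (VEGFR3) had 770, 799 and 821 in PKM2fl/fl sham and 1286, 1059 and 961 in PKM2fl/fl MI hearts. Those of PKM2-/- hearts were 871, 919 and 865 after sham and 1231, 993 and 1109 after MI. Every MI heart was above every sham heart, and the rise was 1.37-fold in PKM2fl/fl (0.46, adjusted p = 0.0039) and 1.25-fold in PKM2-/- hearts (0.32, adjusted p = 0.0263). The PKM2-/- call for *Flt4* was lost on leaving out PKM2-/- sham replicate 1 (adjusted p = 0.0650) or 3 (0.0661), or MI replicate 1 (0.111) or 3 (0.0605).

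The neuropilins parted. *Nrp1*, the co-receptor of VEGF-A and of semaphorin 3A, had 5242, 6463 and 7615 normalized counts in PKM2fl/fl sham and 6347, 7334 and 6260 in PKM2fl/fl MI hearts. Its PKM2-/- values were 4770, 4128 and 6380 after sham and 4379, 5271 and 4951 after MI. The groups overlapped in both genotypes, with log2 fold changes of 0.06 (-0.29 to 0.41) and -0.05 (-0.40 to 0.31). *Nrp2*, the co-receptor of VEGF-C and of semaphorin 3F, had 1786, 2084 and 2061 in PKM2fl/fl sham and 4308, 3914 and 3604 in PKM2fl/fl MI hearts. PKM2-/- hearts had 1968, 2108 and 2053 after sham and 3775, 3678 and 3552 after MI. The MI hearts of each genotype were tightly grouped and far above sham. The rise was 1.99-fold in PKM2fl/fl (0.99, standard error 0.10, adjusted p = 1.31e-06) and 1.80-fold in PKM2-/- hearts (0.84, adjusted p = 3.49e-06). At baseline *Nrp2* had 2799 ± 324 in PKM2fl/fl and 2324 ± 115 in PKM2-/- hearts (SD, n = 2). The sham means were lower than these, so the rise is relative to sham.

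**Figure D2:**
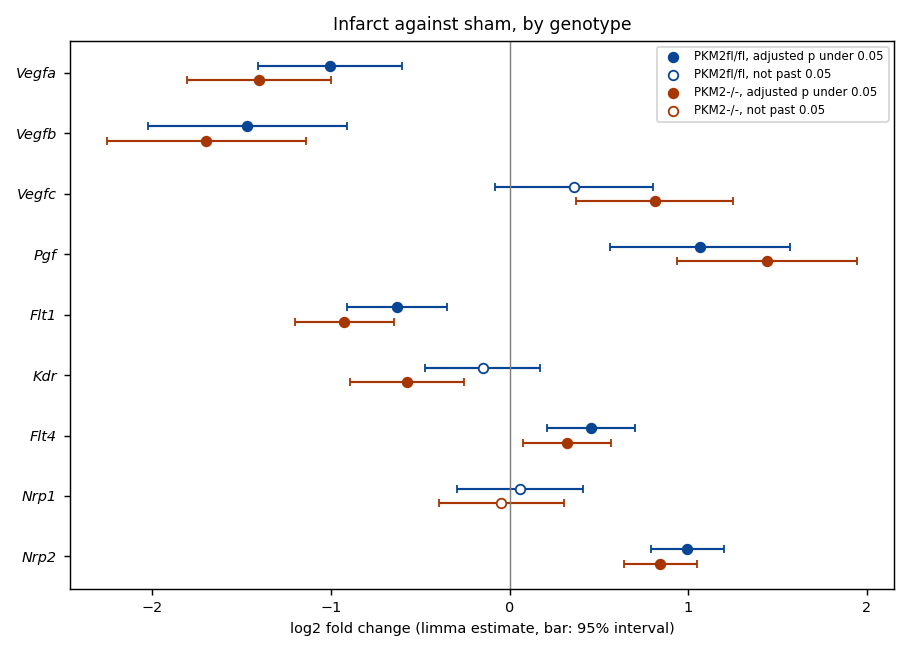
Log2 fold change of MI against sham (x axis, limma estimate with its 95% interval) for the 9 genes (y axis) in each genotype, filled where the adjusted p was under 0.05. The estimates run from -1.70 for *Vegfb* to 1.44 for *Pgf*, both in PKM2-/- hearts, and those of *Nrp1* lie between -0.05 and 0.06.

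Over both genotypes, 8 of 9 members were called, against 65.7% of all genes. *Vegfc*, *Pgf*, *Flt4* and *Nrp2* were higher, as were 32.9% of all genes, and *Vegfa*, *Vegfb*, *Flt1* and *Kdr* were lower, as were 32.7%. *Nrp1* was not called (log2 fold change 0.01, -0.24 to 0.26, adjusted p = 0.965). These calls are relative to the authors' size factors. Scaling to total reads without the ribosomal loci moved the median of all genes to 0.28 and split the calls over all genes into 9456 higher and 4318 lower, against 6779 and 6738. Under that scaling *Kdr* was no longer called (-0.08, adjusted p = 0.548) and *Nrp1* was (0.28, adjusted p = 0.0486). The 7 other members kept their direction and call over both genotypes.

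Since a library's scaling cancels in a ratio of 2 genes, the balance between members was compared within each library as a difference of log2(normalized count + 1). These ratios are not per length, so their changes rather than their levels are read. *Pgf* relative to *Vegfa* rose by 2.46 on the log2 scale between sham and MI, by 2.07 in PKM2fl/fl and 2.84 in PKM2-/- hearts. The sham libraries ranged from -5.35 to -4.45 and the MI libraries from -3.63 to -1.60. *Nrp2* relative to *Nrp1* rose by 0.91, from -1.88 to -0.97 in sham to -0.91 to -0.21 in MI hearts. *Flt1* relative to *Kdr* fell by 0.41 and *Vegfb* relative to *Vegfa* fell by 0.38. At baseline the log2 ratio of *Flt1* to *Kdr* was 0.10 and 0.43 in PKM2fl/fl and 0.47 and 0.35 in PKM2-/- hearts. It ranged from 0.57 to 1.31 after sham and from 0.32 to 0.73 after MI. All sham hearts thus lay above the baseline hearts, and the fall of this ratio is relative to sham. In each of these 4 ratios all 6 MI hearts lay beyond all sham hearts of their genotype (exact permutation test within genotype, two-sided, p = 0.005, the smallest it allows; adjusted p = 0.005625 over 9 ratios).

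**Figure D3:**
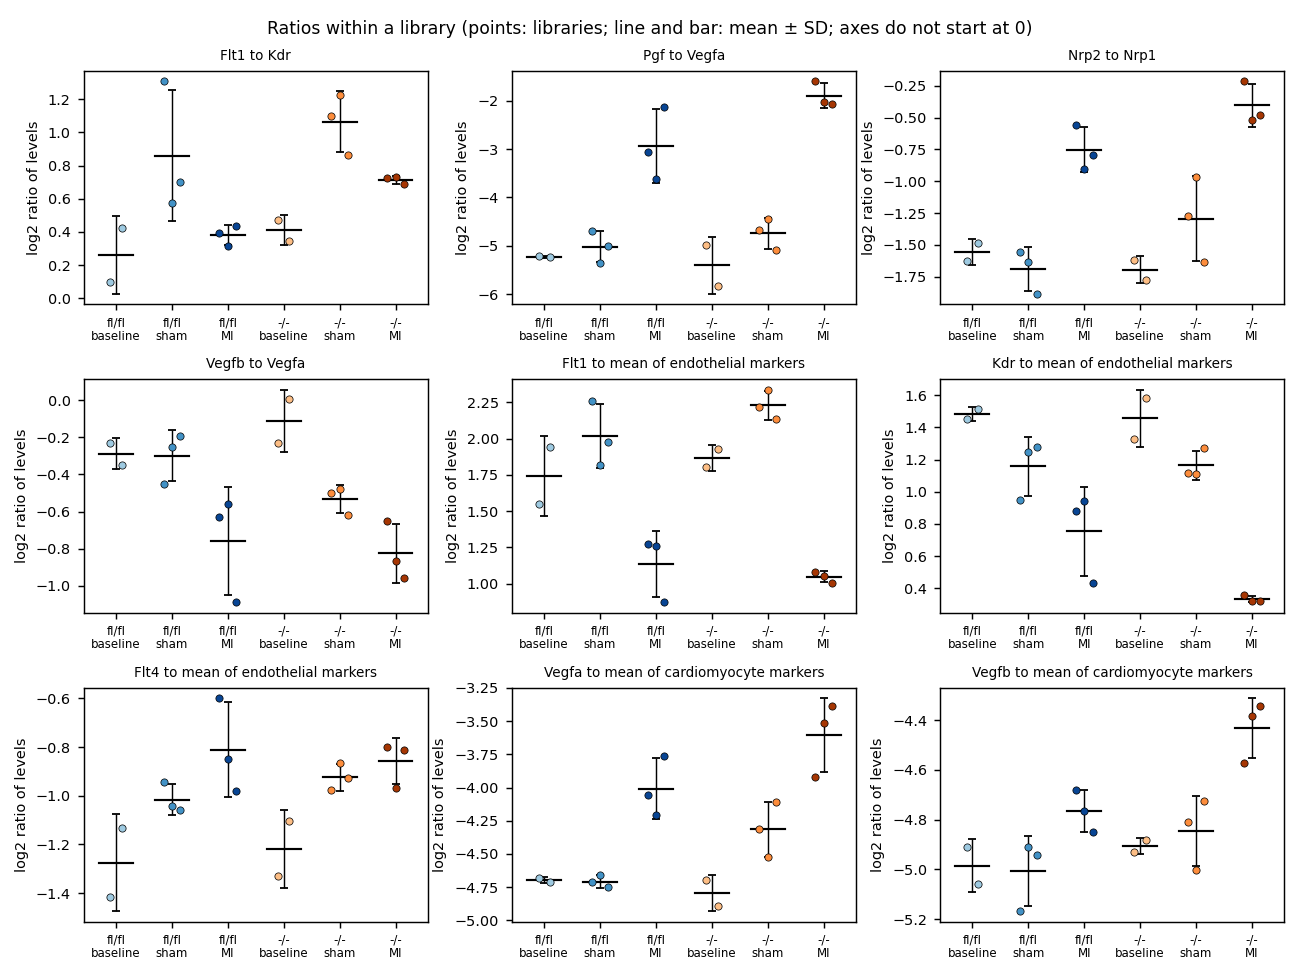
Log2 ratios within a library (y axes, which do not start at 0) in the 6 groups (x axes), with a point per library and the mean ± SD. In 8 of the 9 panels all MI points lie beyond all sham points of their genotype, and for *Flt4* against endothelial markers 4 of 6 do.

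Markers of the cell types that carry these genes moved with MI. Of 9 cardiomyocyte markers 9 fell (median log2 fold change over both genotypes -2.11), and their summed level went from 1075310 to 1331350 in sham hearts to 219836 to 517262 in MI hearts. None of the defining cardiomyocyte markers was at 0. *Vegfa* relative to the mean of these markers was 0.70 higher after MI, and *Vegfb* 0.33 higher. Thus both ligands fell by less than the mean of these markers did, and in 6 of 6 MI hearts the ratio lay above all sham hearts of the genotype. Single markers ranged in log2 fold change over both genotypes from -2.31 to -0.98, against -1.20 for *Vegfa* and -1.58 for *Vegfb*. Not every marker therefore fell by more than the ligands. Among 14 endothelial markers 4 rose, 1 fell and 9 were not called (median 0.12). *Cdh5*, the endothelial cadherin, had a log2 fold change of 0.75 (adjusted p = 1.2e-07), *Pecam1* 0.14 (adjusted p = 0.0572) and *Eng* 0.12 (adjusted p = 0.168). Relative to the mean of these markers *Flt1* fell by 1.03 and *Kdr* fell by 0.62, whereas *Flt4* changed by 0.14 (exact permutation p = 0.06). The first 4 ratios named here had the same exact permutation p as above (0.005).

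Of 6 lymphatic endothelial markers 4 passed the filter and all 4 fell, with *Pdpn* and *Ccl21a* too low to test. *Prox1*, the lymphatic identity factor, fell by 1.60, *Reln* fell by 0.58 and *Lyve1* fell by 0.57 on the log2 scale. Whether these markers report lymphatic cells alone in whole left ventricle was not tested. Over both genotypes *Vegfc* and *Flt4* were higher in MI than in sham hearts. All 9 monocyte and macrophage markers rose (median 1.98), 6 of 8 fibroblast markers rose and 1 fell, and 4 of 7 mural markers rose and 3 fell. Of the neutrophil markers 2 of 5 rose, and of the erythroid markers 0 of 5 were called. The part of these cell types in the members' changes was not tested.

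**Figure D4:**
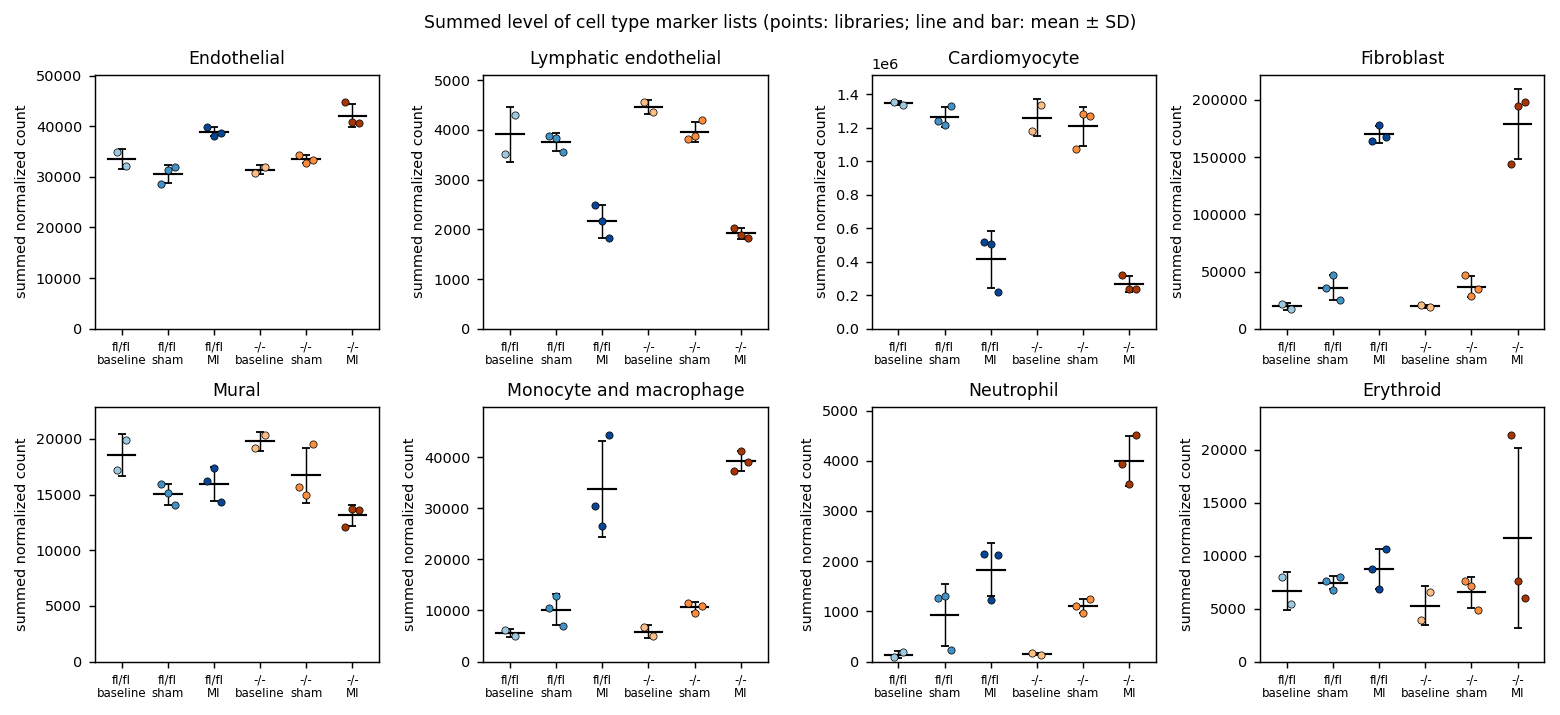
Summed normalized count of each cell type marker list (y axes, from 0) in the 6 groups (x axes), with a point per library and the mean ± SD. Cardiomyocyte sums are 219836 to 517262 in MI hearts against 1075310 to 1331350 in sham hearts, while endothelial sums are 38149 to 44815 against 28539 to 34388.

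Genes around the pathway also differed after MI over both genotypes, where 65.7% of all genes were called. Of 17 genes for ligand processing and inhibition 15 were tested, 12 rose and 1 fell (median log2 fold change 1.09, against 0.01 over all genes). *Ccn2*, which binds and holds VEGF-A in the matrix, rose by 2.29 from 1008 ± 213 to 5388 ± 887 normalized counts in PKM2fl/fl hearts (SD, n = 3). *Vash1*, an angiogenesis inhibitor, rose by 1.56, and *Plat*, the tissue plasminogen activator, by 1.39. Of 41 receptor signaling genes 40 were tested, 18 rose and 9 fell (median 0.13). The phosphatase *Ptpn1* rose by 1.34, the endocytic adaptor *Dab2* by 1.73 and the protein kinase *Prkcb* by 1.60.

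All 12 semaphorins and plexins were tested, and 7 rose and 3 fell (median 0.70). *Plxnd1*, the receptor of semaphorin 3E, rose by 1.01, *Plxna1* by 0.79 and *Sema3f*, the ligand of neuropilin 2, by 0.90. Of 15 targets of the hypoxia-inducible factor (HIF) 7 rose, 3 fell and 5 were not called (median 0.17). *Hmox1*, the inducible heme oxygenase, rose by 4.52, from 252 ± 114 to 5439 ± 1359 in PKM2fl/fl hearts, and the glucose transporter *Slc2a1* by 1.62. *Pdk1*, the pyruvate dehydrogenase kinase, fell by 1.03. The listed HIF targets differed in direction in these hearts, and *Vegfa*, itself a known HIF target, was lower. The part of HIF in these differences was not tested.

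To find whether loss of PKM2 changed the family, PKM2-/- hearts were compared with PKM2fl/fl hearts under each treatment. In the limma fit no member passed the test at baseline, after sham or after MI, and *Pgf*, higher in PKM2-/- hearts after MI, came nearest. At baseline 0 of 9 were called by limma, edgeR or DESeq2, against 0.00972% of all genes by limma. DESeq2 gave an adjusted p to only 4297 genes there, so the lack of a DESeq2 call does not show that each member was tested. *Nrp2* was the 1 member with an unadjusted p under 0.05, which 3.64% of all genes had, and was 1 of 2 members whose genotypes did not overlap (34.9% of all genes). It had 3028 and 2570 normalized counts in PKM2fl/fl and 2406 and 2243 in PKM2-/- hearts (log2 fold change -0.26, -0.51 to -0.01, adjusted p = 1.00). *Vegfa*, the other, was 4710 and 4636 against 4209 and 4087 (-0.17, -0.67 to 0.32). With 2 hearts a group, the intervals of the members reached from -0.97 to 0.69, so differences of that size were not excluded.

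After sham 0 of 9 were called, again against 0.00972% of all genes, and 2 had an unadjusted p under 0.05, as did 9.95% of all genes. The genotypes did not overlap after sham for 5 of 9 members (16.5% of all genes), of which *Vegfa*, *Pgf*, *Flt1* and *Flt4* were higher and *Vegfc* was lower in PKM2-/- hearts. *Vegfc* was lower in all 3 PKM2-/- sham hearts than in any PKM2fl/fl sham heart (395 ± 51.8 against 626 ± 122, log2 fold change -0.65, -1.09 to -0.21, adjusted p = 0.261). *Pgf* was higher in all 3 (210 ± 13.1 against 143 ± 30.8, 0.57, 0.07 to 1.08, adjusted p = 0.429). EdgeR with a filter and DESeq2 called 0 members. With edgeR and no filter, *Vegfc* passed (-0.69, adjusted p = 0.000299), as did 716 of all genes under that setting. The summed endothelial markers were 32820 to 34388 in PKM2-/- and 28539 to 31960 in PKM2fl/fl sham hearts, with no overlap. None of the 14 was called by limma, 7 had an unadjusted p under 0.05, and their part in the members' differences was not tested.

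After MI 0 of 9 were called, against 0.967% of all genes, and 3 had an unadjusted p under 0.05, as did 17% of all genes. For 2 of 9, *Pgf* and *Nrp1*, the genotypes did not overlap (18.9% of all genes). *Pgf* was 577 ± 98.7 in PKM2-/- and 304 ± 78.3 in PKM2fl/fl MI hearts, and every PKM2-/- heart was above every PKM2fl/fl heart. The difference was 1.93-fold (log2 fold change 0.95, 0.44 to 1.45, adjusted p = 0.0650). It did not pass with edgeR and its filter. It passed with DESeq2 (0.93, adjusted p = 0.00429) and in 5 other alternatives, among them without PKM2fl/fl MI replicate 3 (1.07, adjusted p = 0.016). *Nrp1* was lower in every PKM2-/- heart (4867 ± 452 against 6647 ± 597, -0.45, adjusted p = 0.181), and *Kdr* was 2534 ± 181 against 3278 ± 619 with overlap (-0.35, adjusted p = 0.246). Without PKM2fl/fl MI replicate 3, *Kdr* (-0.52, adjusted p = 0.0221) and *Vegfb* (-0.61, adjusted p = 0.00811) also passed. That setting called 2279 of 20513 genes, against 199 in the main fit. Over all genes DESeq2 called 1043 of 18006, edgeR without a filter 1710 of 40116 and library weights 2040 of 20576. Total count scaling called 122, and 154 without the ribosomal loci. *Flt1* (-0.02, -0.30 to 0.25) and *Flt4* (0.02, -0.23 to 0.26) had estimates near 0. Beside these values, the summed neutrophil markers were 3527 to 4521 in PKM2-/- and 1232 to 2138 in PKM2fl/fl MI hearts. The summed cardiomyocyte markers were 234951 to 319691 and 219836 to 517262. Without PKM2fl/fl MI replicate 3, the lowest, they were 507050 and 517262 in PKM2fl/fl MI hearts and no longer overlapped between genotypes. The part of these markers in the differences, also in those that passed without that heart, was not tested.

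Whether MI acted differently by genotype was tested directly. The interaction was called for 0 of 9 members and for 0 of 20576 genes (limma), with 0 members and 1703 genes (8.28%) at an unadjusted p under 0.05. *Kdr* had the smallest unadjusted p among the members (-0.42, -0.88 to 0.03, adjusted p = 0.629). The interaction for *Vegfc* was 0.45 (-0.17 to 1.07) and for *Pgf* 0.37 (-0.34 to 1.08). The calls of *Vegfc* and *Kdr* in PKM2-/- hearts alone do not by themselves show that the genotypes responded differently. EdgeR and DESeq2 also called 0 members, and over all genes called 0 and 60. Without PKM2fl/fl MI replicate 3, limma called 486 of all genes, 79 higher and 407 lower, and again 0 members.

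**Figure D5:**
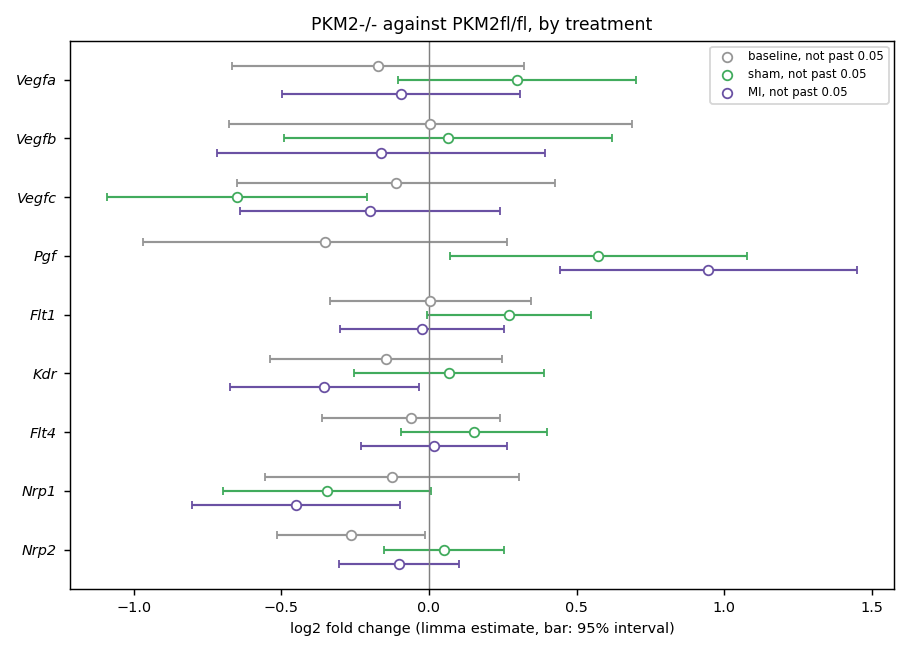
Log2 fold change of PKM2-/- against PKM2fl/fl (x axis, limma estimate with its 95% interval) for the 9 genes (y axis) at baseline, after sham and after MI. All markers are open, since no adjusted p was under 0.05, and the highest estimate is that of *Pgf* after MI (0.95).

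Sham surgery itself was compared with baseline. In PKM2fl/fl hearts 0 of 9 members were called, against 0.19% of all genes. *Nrp2* came nearest, with 3028 and 2570 at baseline and 1786 to 2084 after sham (log2 fold change -0.50, adjusted p = 0.0774), and it passed with DESeq2 (adjusted p = 0.00176) and without PKM2fl/fl sham replicate 3 (0.0453) or MI replicate 3 (0.0405). Over all genes these settings called 356, 282 and 101, against 39 in the main fit. EdgeR called 0 members with its filter. *Kdr* had 5179 and 4958 at baseline and 2865 to 4155 after sham (-0.50, adjusted p = 0.308). In PKM2-/- hearts 2 of 9 were called, against 5.14% of all genes. *Pgf* rose from 132 and 71.5 at baseline to 196, 222 and 213 after sham (1.11, 0.54 to 1.67, adjusted p = 0.0254). *Vegfc* fell from 858 and 662 to 455, 367 and 364 (-0.94, -1.43 to -0.44, adjusted p = 0.0299). Both calls were lost without PKM2-/- baseline replicate 2 or without PKM2-/- sham replicate 2, where *Pgf* had an adjusted p of 0.292 and 0.0688 and *Vegfc* of 0.0732 and 0.0812. *Vegfc* was also lost without baseline replicate 1 (0.250) or sham replicate 3 (0.0697) and with total count scaling (0.408), and *Pgf* without sham replicate 1 (0.0543) or 3 (0.0520) and with edgeR (0.0604). *Nrp1*, with 7409 and 7666 at baseline and 4770, 4128 and 6380 after sham, was not called (-0.59, adjusted p = 0.0821) but passed with DESeq2 (-0.57, 0.0483), with edgeR and no filter (-0.58, 0.0161) and without PKM2-/- sham replicate 3 (-0.76, 0.0232). Beside these values, 5 of 5 neutrophil markers were called higher after sham in PKM2-/- hearts (median log2 fold change 3.41), and their sum was 132 to 167 at baseline and 974 to 1254 after sham. Of the fibroblast markers 3 of 8 and of the macrophage markers 2 of 9 were called higher, and of the endothelial markers 1 rose and 1 fell among 14. In PKM2fl/fl hearts none of these markers was called (limma), but 5 of 5 neutrophil, 5 of 8 fibroblast, 9 of 9 macrophage and 4 of 14 endothelial markers had an unadjusted p under 0.05. The part of these markers in the members' differences was not tested. The difference between genotypes in the sham effect, a comparison added after the values were seen, was called for 0 of 9 members and 0 of all genes, with 1294 genes (6.29%) at an unadjusted p under 0.05, *Pgf* the 1 member among them (0.93, 0.13 to 1.72).

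Across the 16 libraries, the genes whose log2 levels followed each member most closely were taken by Pearson's r among 20575 other genes. The libraries share the differences between groups, so these coefficients describe such differences too and carry no p. For members that changed strongly with MI, the contrast of MI with sham is a large part of them. *Nrp1* was not called in that contrast, so its coefficients are not read that way. *Vegfb* had the closest followers, *Gm16845*, *Ecsit* and *Tle5* (r = 0.998 each). *Vegfa* was followed by *Slc25a35* (0.981), *Hcfc1r1* (0.978) and *Nmnat1* (0.978). *Pgf* was followed by *Chil3* (0.969), *Wdr43* (0.969) and *Gm20488* (0.968), and *Vegfc* by *Ebf1* (0.964), *Arhgap28* (0.910) and *2610307P16Rik* (0.908). Of the receptors, *Flt1* had *Fry* (0.974), *Adgrf5* (0.972) and *Fam160a1* (0.970), *Kdr* had *Gipc3* (0.951), *Zfp523* (0.947) and *Septin4* (0.946), and *Flt4* had *Phrf1* (0.956), *Phc2* (0.946) and *Dnm2* (0.938). *Nrp1* was followed by *Sema6a* (0.959), *Frmd6* (0.911) and *Myct1* (0.893). *Nrp2* was followed by *Ttyh2* (0.989), *Unc5b* (0.974) and *Plxnd1* (0.970), the last of which was also among the plexins that rose.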

How the data were processed

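RNA was sequenced from 16 left ventricles after depletion of ribosomal RNA. The authors trimmed the reads, aligned them to mm10 with HISAT2 and counted them per gene with featureCounts. The signal they deposited for each gene in each library is that count after division by a DESeq2 size factor. Strand and multi-mapping settings are not given in the sources used here. The same table holds the authors' comparison of the baseline genotypes (mean, log2 fold change, standard error, Wald score, p-value and adjusted p-value), which was not used. Since 100% of values were whole multiples of 1 read (tolerance 0.01 reads), reads were recovered, with 20623769 to 71855101 per library. Groups were read from the labels, and 0 columns lacked a sample.

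Limma 3.58.1 (R 4.3.3) with a mean-variance trend was fitted to log2(normalized count + 1) of all 16 libraries in 6 groups, for 20576 genes with a mean of at least 10. Adjustment was by Benjamini-Hochberg, and an adjusted p under 0.05 was called. Since the values are normalized, limma was the main test, not edgeR. The fold changes are therefore on the log2(value + 1) scale, which understates low genes. Tested on simulated data for MI against sham in PKM2fl/fl, the fit recovered 98% of 200 changed genes among 20513, with 8 false calls. Only those 200 genes were changed, each at least 2-fold, with the same spread setting for all genes. The recovery therefore does not describe smaller changes, uneven libraries or data in which many more genes differ. Alternatives were edgeR 4.0.16 with and without a filter and DESeq2 1.42.0 on the reads, total count scaling with and without 13 loci resembling ribosomal RNA, a pseudocount of 0.1, no filter, a minimum of 100, the compared groups alone, the replicate number as a block, library weights and each library left out. The genes and lists were chosen with earlier results of these data known. Named genes were the 9 members, *Vegfd*, *Pkm*, at most 3 genes with the smallest p from each pathway list, at most 3 of the most abundant markers and the 3 genes most like each member. *Trpt1*, *Pdpn* and *Ccl21a* were named after their values were seen. *Ero1a* was matched through its RefSeq synonym.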

Additional observations from a re-analysis of the deposited data

How the results depend on the processing

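The fold changes of the 9 members in the 10 comparisons were recomputed 2430 times, and 2386 kept their side of the threshold, 22 gained and 22 lost a call. No called value turned its direction, but 95 of the 1760 values uncalled in both changed sign. PKM2-/- against PKM2fl/fl after MI, 0 members called became 1 with edgeR without a filter, 1 with DESeq2, 1 with total count scaling, 1 with that scaling without ribosomal loci and 2 with library weights. With a library left out it ranged from 0 to 3, the 3 without PKM2fl/fl MI replicate 3. After sham it became 1 with edgeR without a filter. Sham against baseline in PKM2fl/fl gave 1 with edgeR without a filter, 1 with DESeq2, 2 with library weights and 0 to 1 with a library left out. In PKM2-/- hearts the 2 calls became 1 with edgeR, with both total count scalings and with the compared groups alone, 3 with DESeq2 and with edgeR without a filter, and 0 to 2 with a library left out. The causes were not tested. MI against sham over both genotypes gave 7 to 8 calls. Total count scaling moved the median of all genes to -0.17 in PKM2fl/fl and 0.52 in PKM2-/- hearts. In MI against sham it ended the calls of *Flt4* in PKM2fl/fl (0.28, adjusted p = 0.531), *Flt1* in PKM2-/- (-0.41, 0.297) and *Kdr* in PKM2-/- hearts (-0.06, 0.889; -0.21, 0.292 without ribosomal loci). *Vegfc* in PKM2fl/fl hearts gained a call with edgeR without a filter (0.35, 0.0470) and without ribosomal loci (0.56, 0.0428).

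The change of the log2 ratio of *Pgf* to *Vegfa* between sham and MI was 2.84 in PKM2-/- and 2.07 in PKM2fl/fl hearts (2.46 over both). For *Flt1* to endothelial markers it was -1.18 and -0.88 (-1.03 over both), and for *Kdr* -0.83 and -0.40 (-0.62 over both). The difference between genotypes in these ratios was not tested. The change of *Flt4* relative to endothelial markers ranged from 0.082 to 0.178 with a library left out, and passed without PKM2fl/fl MI replicate 3 (0.178, exact permutation test, adjusted p = 0.02), PKM2-/- sham replicate 2 (0.150, 0.045) or PKM2-/- MI replicate 2 (0.162, 0.02). Same-numbered hearts are different mice, and their deviations correlated from -0.09 to 0.13 over 20 pairs, so the numbers do not pair the samples. With the replicate number as a block, the member counts were as without it, with 6, 8 and 8 called for MI against sham and 0, 0 and 0 between genotypes. Depth limits *Pgf* most, with as few as 39 reads in a library, and baseline groups of 2 hearts give wide intervals. The limma p-values weigh a difference against the spread between these hearts, and those of the ratios rank it among relabelings within genotype.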
